A study of Mus musculus with 2 samples.

Results

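The chemokine-high endothelial cells described here were 338 of 4224 kept cells from mouse tumor endothelium, and the 2 deposited libraries held 6194 cells in all. They were chosen by a score, the mean deposited natural log value of Ccl2, Cxcl1, Cxcl2 and Icam1, computed in every cell with at least 2000 detected genes, and the top 8% of both libraries pooled were taken. The other 3886 kept cells served for comparison. Because the score selected these cells, the 4 score genes and the share of selected cells in each library are given as a description of the rule and not as results.

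CD31+ tumor endothelial cells of adult C57BL/6 mice were sorted by flow cytometry and loaded on a droplet system for 3' single-cell RNA sequencing with unique molecular identifiers (UMIs). One library came from control mice and 1 from NF2 KO mice, in which the gene for Merlin, an upstream component of Hippo signalling, was knocked out. For the tumor type, the number of mice pooled, the deleted exons, the Cre driver and the time after deletion, no statement was found in the sources used here. Cell names carry a run number, 1 or 2, within each library. The labels do not say what a run is, so the 4 runs are shown separately but are not treated as replicates. With 1 library per group, genotype cannot be told apart from any other difference between the libraries, no p-value was computed, and every interval below is a 95% interval for counting error alone.

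Endothelial cells answer inflammatory cytokines such as TNF and interleukin 1 mainly through NF-κB, a transcription factor family held in the cytoplasm by inhibitors of the IκB family until these are degraded. Activated cells secrete chemokines, small proteins that draw leukocytes, and display adhesion molecules by which leukocytes roll, arrest and cross the vessel wall. NF-κB also induces its own inhibitors, so the same genes that report the activation help to end it. Tumor vessels are often found poorly responsive to such cytokines.

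The score of the lowest selected cell was 1.191750 and that of the highest cell outside was 1.191702. A further 40 cells lay within 0.05 of the threshold on each side, and 537 kept cells had a score of 0. The selected cells thus form the upper end of a continuous range. In the control library 23 of 748 kept cells of run 1 (3.07%, exact Clopper-Pearson interval 1.96 to 4.58%) and 30 of 656 of run 2 (4.57%, 3.11 to 6.46%) were selected. In the NF2 KO library the numbers were 101 of 1148 in run 1 (8.80%, 7.22 to 10.6%) and 184 of 1672 in run 2 (11%, 9.54 to 12.6%). Both NF2 KO runs lay above both control runs. The share of the whole library was 10.1% in NF2 KO and 3.77% in control, a ratio of 2.68 (1.99 to 3.66). Selected cells were read more deeply, with a median of 22561 UMIs against 17947 in the others. A score on cells thinned at random to 5000 UMIs is among the alternatives given below. Beyond that, the part of depth in the shares was not tested. With each run's cells in 4 equal classes by depth, the deepest class had a larger share than the shallowest in every run. The shallowest and deepest shares were 7.32% and 13.9% in NF2 KO run 1 and 6.70% and 16.3% in NF2 KO run 2. In control they were 2.14% and 3.21% in run 1 and 3.66% and 5.49% in run 2. Of 1970 cells under the gene minimum, 103 reached the score threshold. They were left out by the rule.

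**Figure D1:**
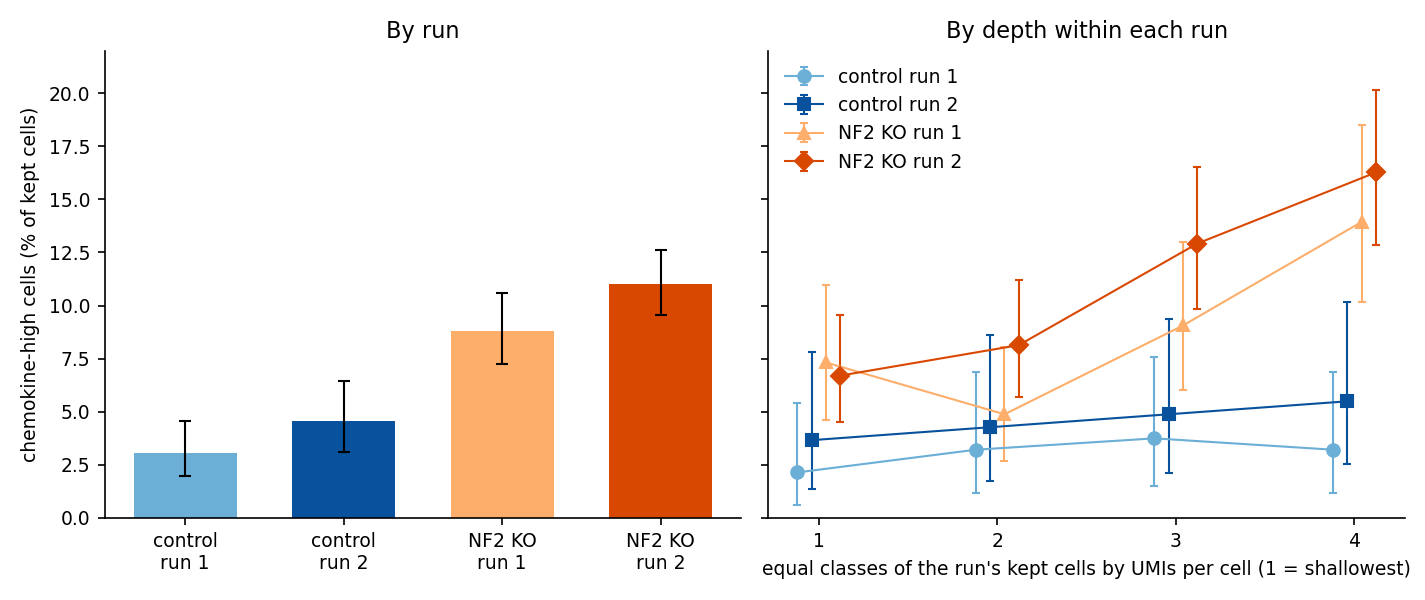
Percentage of kept cells that were selected, by run (left) and by 4 equal classes of each run's cells ordered by UMIs per cell (right), with exact 95% binomial intervals for counting error. The control runs lie at 3.07% and 4.57% and the NF2 KO runs at 8.80% and 11%, and in the NF2 KO runs the deepest class holds the largest share.

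The selected cells carried endothelial markers. All 15 endothelial genes of the marker list, among them Pecam1, Cdh5, Kdr and Tek, were detected, and their summed level was 7443 UMIs per 1000000 (CPM) in selected cells and 8605 CPM in the others. Of 8 T and NK cell genes 5 were at 0, and the list summed to 0.608 CPM in selected and 1.18 CPM in other cells. Of 4 B cell genes 3 were at 0 (sums 0.730 and 0.693 CPM). Of 3 mast cell genes, Cpa3 and Mcpt4 were at 0 in selected cells, which leaves Kit. That list summed to 243 CPM in selected and 238 CPM in other cells. Of 5 epithelial genes measured, Epcam and Krt19 were at 0 (sums 1.82 and 2.64 CPM). General leukocyte markers summed to 27.4 CPM in selected cells and 21.0 CPM in the others. At least 2 of these leukocyte genes were found in 6.80% of selected and 3.60% of other cells. Fibroblast markers summed to 26.1 CPM against 17.5 CPM, with 53.0% of the UMIs in 1 cell. Macrophage and monocyte markers summed to 53.4 CPM in selected cells and 44.8 CPM in the others, and none of the 14 was at 0. Neutrophil markers summed to 160 CPM in selected cells and 61.6 CPM in the others, and were higher in run 2 of both libraries. By run they summed to 29.6, 101, 44.6 and 232 CPM in selected cells of control runs 1 and 2 and NF2 KO runs 1 and 2. In the others the sums were 82.6, 51.8, 45.0 and 66.2 CPM. A single selected cell held 27.8% of the neutrophil marker UMIs of selected cells. Removing the 5 selected cells highest in neutrophil markers left 56 genes called higher and 27 called lower by the rule defined below. The mitochondrial share of UMIs was 3.25% in selected and 3.56% in other cells. Run pairs shared at most 1 cell barcode. The markers are thus mainly those of endothelium, and the name chemokine-high refers to the 4 selecting genes.

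Ccl2, the main attractant of monocytes, dominated the score. Its level in selected cells was 2906 and 3705 CPM in control runs 1 and 2 and 2519 and 2608 CPM in NF2 KO runs 1 and 2. Cxcl1, a neutrophil attractant, measured 401, 298, 449 and 447 CPM in the same order. The related neutrophil attractant Cxcl2 measured 264, 421, 323 and 369 CPM, and Icam1, the adhesion molecule on which leukocytes arrest, 321, 440, 381 and 360 CPM. Other kept cells lay at 101 to 262 CPM for Ccl2 and below 130 CPM for the other genes in every run, a gap that the rule itself made. Ccl2 had the highest value of the 4 genes in 229 of the 338 cells. UMIs of all 4 genes were found in 169 cells, of 3 genes in 148 and of 2 genes in 21, and no cell was selected on 1 gene alone.

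The 4 genes went together only loosely. Over the 4224 kept cells, Pearson's r of the natural log values was 0.345 for Cxcl1 with Cxcl2, 0.241 for Ccl2 with Cxcl1, and 0.0288 for Cxcl2 with Icam1. These pairs share each cell's depth and are given as a description. When each gene was left out in turn and 338 cells were chosen by the remaining 3, the left-out gene was higher in the chosen cells by a ratio of 3.20 for Cxcl1, 2.65 for Ccl2, 2.42 for Cxcl2 and 1.57 for Icam1. Icam1 had the lowest combined ratio and the lowest in both NF2 KO runs (1.53 and 1.30). In both control runs Cxcl2 was lowest (2.41 and 3.30), below Icam1 (3.61 and 3.62). For Ccl2 too, both control ratios (11.99 and 4.36) lay above both NF2 KO ratios (1.85 and 2.46). The same held for Cxcl1, with 5.66 and 5.25 in control and 2.86 and 3.03 in NF2 KO. Cxcl2, at 2.77 and 2.21 in NF2 KO, overlapped between the libraries. Leaving out Ccl2 replaced the most cells, with 190 of the 338 retained, compared with 263 without Cxcl1 or without Icam1 and 277 without Cxcl2.

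Promoters of the score genes Cxcl1 and Cxcl2 and of Cxcl10, Csf1 and Nfkbia are shown because a κB site is the DNA element that NF-κB binds. No promoter sequence was available for the score gene Ccl2 or for Vcam1. Those of Icam1, Tnfaip3 and Ubd were searched but are not printed, so the printed set is picked and all of it holds a match. The 250 bases before the RefSeq start of each gene (build GRCm38.p6, the sequence of mm10) were searched on both strands for the 10-base κB consensus. Matches are in capitals, and overlapping matches on the 2 strands run together. Each sequence is printed 5′ to 3′ on the gene's strand.
Cxcl1, chr5:90890995-90891244, + strand: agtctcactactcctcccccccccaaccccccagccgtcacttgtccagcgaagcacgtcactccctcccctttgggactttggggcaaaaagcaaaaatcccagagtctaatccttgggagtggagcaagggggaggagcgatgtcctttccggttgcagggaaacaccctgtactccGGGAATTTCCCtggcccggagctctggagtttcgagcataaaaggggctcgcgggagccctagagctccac
Cxcl2, chr5:90903649-90903898, + strand: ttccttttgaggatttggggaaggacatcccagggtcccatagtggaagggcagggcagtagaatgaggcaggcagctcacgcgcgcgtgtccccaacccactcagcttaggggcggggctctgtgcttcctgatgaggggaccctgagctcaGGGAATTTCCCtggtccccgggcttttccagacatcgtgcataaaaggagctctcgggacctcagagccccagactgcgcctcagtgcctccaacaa
Cxcl10, chr5:92348890-92349139, - strand: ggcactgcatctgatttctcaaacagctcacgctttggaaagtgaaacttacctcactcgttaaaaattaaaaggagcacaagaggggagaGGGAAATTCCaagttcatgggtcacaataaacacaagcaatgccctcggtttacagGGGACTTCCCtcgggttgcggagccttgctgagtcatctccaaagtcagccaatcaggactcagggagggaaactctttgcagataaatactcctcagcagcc
Csf1, chr3:107760470-107760719, - strand: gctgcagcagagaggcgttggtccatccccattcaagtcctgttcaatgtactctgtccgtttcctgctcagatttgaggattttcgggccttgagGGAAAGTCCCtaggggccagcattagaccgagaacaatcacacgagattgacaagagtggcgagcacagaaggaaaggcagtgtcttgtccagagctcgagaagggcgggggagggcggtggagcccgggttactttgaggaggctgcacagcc
Nfkbia, chr12:55492648-55492897, - strand: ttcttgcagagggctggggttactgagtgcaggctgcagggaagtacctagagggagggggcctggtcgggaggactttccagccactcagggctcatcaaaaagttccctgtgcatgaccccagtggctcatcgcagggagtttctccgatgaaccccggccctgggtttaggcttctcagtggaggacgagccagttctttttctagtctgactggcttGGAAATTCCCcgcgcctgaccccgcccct

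Cxcl1 and Cxcl2 are neighbours on chromosome 5 and hold the same stretch of capitals, beginning 71 bases before the start of Cxcl1 and 97 bases before that of Cxcl2. Cxcl10 has a match 159 and another 103 bases before its start, Csf1 has 1 at 154 bases and Nfkbia 1 at 29 bases. No match was found in this window for Icam1, which says nothing of sites elsewhere. For Tnfaip3, 2 matches lay before 1 annotated start and 0 before another. Of all 32851 RefSeq promoters 3.90% held a match, and of the 4623 promoters of genes measured well enough to compare, 6.01%. Among the genes called higher in selected cells below, 15 of the 36 with a promoter sequence held one (41.7%), and among the genes called lower, 0 of 18. With 18 promoters and a share of 6.01%, a count of 0 cannot show a difference from the other genes. Outside the fixed list of NF-κB targets the share among higher genes was 26.1% (6 of 23: AW112010, Ccrl2, Neurl3, Serpina3g, Steap2 and Ubd).

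NF-κB targets other than the score genes were often higher in selected cells. UMIs were summed over the cells of each run, and a gene was called where its ratio, combined over the 4 runs, reached 1.5 upwards or downwards, the interval did not include 1, the mean level was 20 CPM or more and all 4 run ratios lay on 1 side. Of 5818 genes above that level, 53 were called higher (0.911%) and 25 lower (0.43%), and the median log2 ratio of all 5818 was 0.01. Of the 42 listed NF-κB targets other than the score genes, 17 lay below the level minimum and 25 could be compared. Of these, 17 were higher and 0 lower, and the median log2 ratio was 0.78. The other 36 higher genes and all 25 lower genes were outside the list. A gene can pass the level minimum through the selected cells alone, so the list was also taken by level in the other cells, where 15 of 22 were called higher with a median log2 ratio of 0.77. Every gene here came from the same cells that the score picked, so these ratios describe the selection and are not an independent test. Without control run 1 the number called higher was 82, and without NF2 KO run 2 it was 82 higher and 49 lower. With a run left out, fewer runs had to lie on 1 side.

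The inhibitors that NF-κB induces were prominent. Nfkbia encodes IκBα, the principal cytoplasmic inhibitor. It measured 2881, 2363, 1647 and 1535 CPM in selected cells of control runs 1 and 2 and NF2 KO runs 1 and 2, against 1303, 1261, 829 and 885 CPM in the others, with no overlap and a ratio of 1.85 (1.82 to 1.88). Tnfaip3, encoding the ubiquitin-editing enzyme A20, measured 130, 77.3, 75.6 and 69.1 CPM against 36.2, 31.3, 24.7 and 28.9 CPM (ratio 2.64, 2.41 to 2.89). Its partner Tnip1 was higher by a ratio of 2.03, as was Nfkbie, which encodes IκBε. Nfkbiz and Bcl3, nuclear members of the inhibitor family, had ratios of 1.64 and 1.53. In all, 6 of the 11 feedback genes above the minimum were called higher and 0 lower, with a median log2 ratio of 0.62. All 6 are also on the target list and among its 17 higher genes. Bcl3 lost its call when control run 1, control run 2 or NF2 KO run 1 was left out.

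The machinery upstream of the inhibitors differed less. Of 12 comparable genes for kinases, adaptors and NF-κB subunits, 2 were called higher and 0 lower, with a median log2 ratio of 0.11. Both encode subunits of the alternative pathway and are also among the higher NF-κB targets counted above. Relb measured 59.2, 69.7, 77.0 and 65.4 CPM in selected cells against 34.7, 36.5, 38.7 and 41.4 CPM in the others (ratio 1.72), without overlap. Nfkb2 had a ratio of 1.51 and lost its call without control run 2 or NF2 KO run 2. Tnfrsf1a, the main TNF receptor, was at a ratio of 0.829 and Il1r1, the interleukin 1 receptor, at 1.08, neither called. The survival and signalling genes Traf1 (1.85), Birc3 (1.69), Ripk2 (2.17), Gadd45b (2.57) and Ier3 (1.61) were called higher. Gadd45b, a stress-response gene that restrains JNK signalling, measured 25.04, 46.9, 90.1 and 70.9 CPM in selected cells and 10.9, 9.19, 28.0 and 32.3 CPM in the others, so that selected control cells overlapped unselected NF2 KO cells.

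**Figure D2:**
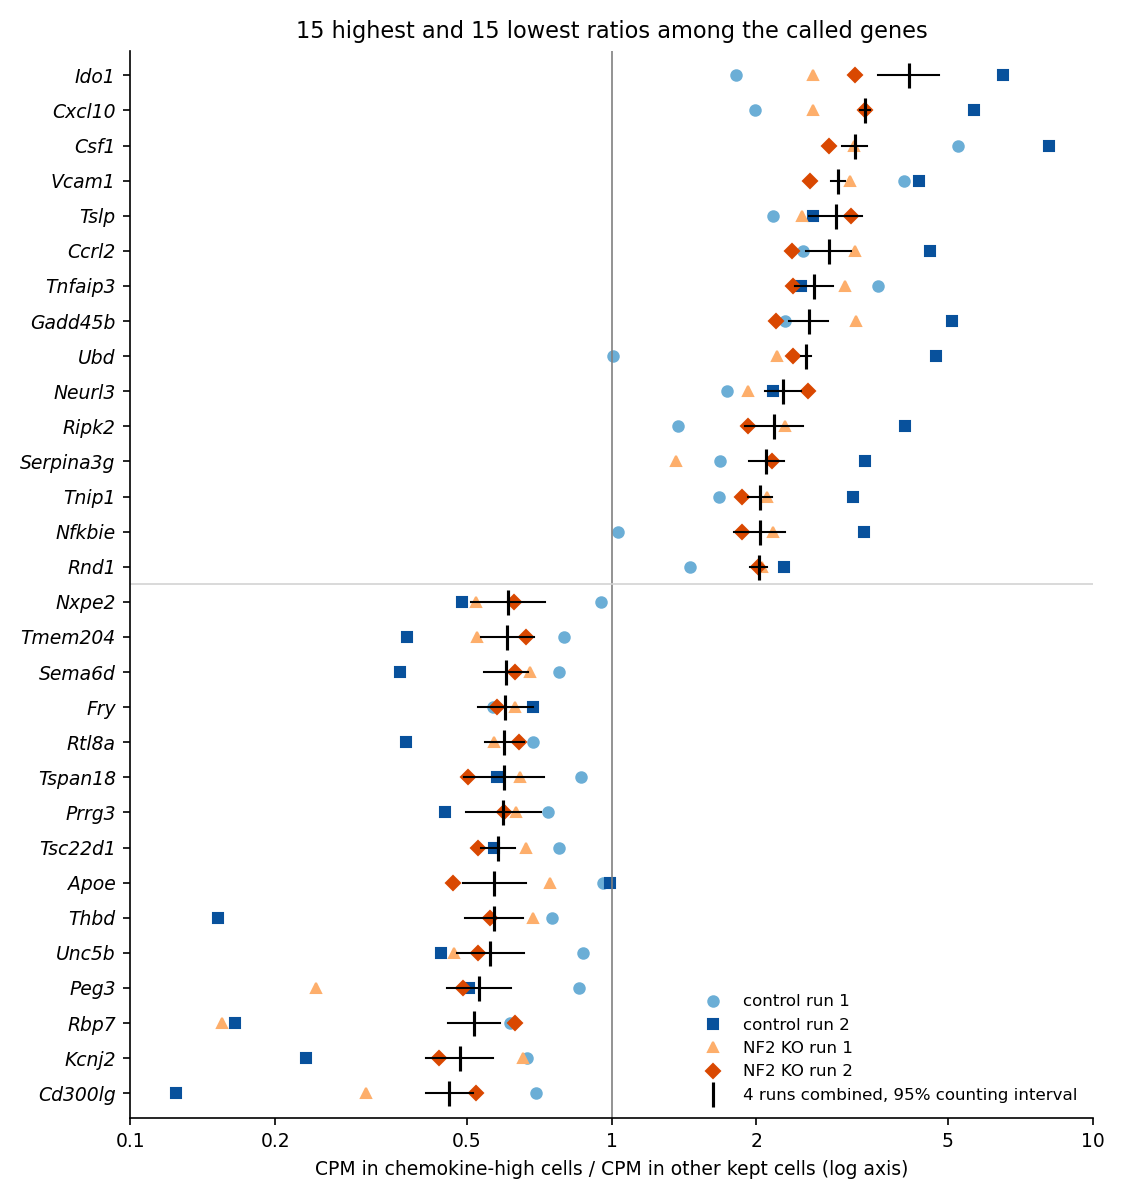
Ratio of CPM in selected over other kept cells (log axis) in each run, for the 15 genes with the highest and the 15 with the lowest combined ratio among the called genes, with the combined ratio and its counting interval as bars. Ido1 to Rnd1 lie right of 1 and Nxpe2 to Cd300lg left of 1 in all 4 runs, with the widest scatter in control run 2.

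Among other chemokines, Cxcl10, an interferon- and NF-κB-induced attractant of activated T cells, was called. It measured 448 and 1420.3 CPM in selected control cells and 545 and 1140.3 CPM in selected NF2 KO cells, against 208 to 340 CPM in the others, with a ratio of 3.36 (3.28 to 3.45) and no overlap. Its neighbour Cxcl9 had a combined ratio of 2.03 but was not called, because in control run 1 it was lower in selected cells (951 against 1266 CPM). The homeostatic chemokine Cxcl12 (0.970), the scavenger Ackr1 that marks venules (1.02) and the Cxcl12 scavenger Ackr3 (0.679) were not called. The other 18 chemokine and chemokine receptor genes in the files lay below the minimum. Of those, Ccl5 and Ccl7 stood at 13.3 and 7.78 CPM in selected cells and 4.91 and 2.98 CPM in the others. Ccrl2, which presents chemerin on activated endothelium, measured 56.9, 118, 36.6 and 48.1 CPM against 22.8, 25.7, 11.4 and 20.3 CPM (ratio 2.83, 2.54 to 3.15).

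Leukocyte adhesion genes did not go up as a group. Of 10 comparable genes, 2 were called higher and 0 lower, and the median log2 ratio was -0.03. Vcam1, the ligand for integrin α4β1 on lymphocytes and monocytes, measured 489 and 788 CPM in control and 501 and 501 CPM in NF2 KO selected cells, against 121 to 194 CPM in the others (ratio 2.95, 2.85 to 3.06). Selp, encoding the rolling receptor P-selectin, measured 52.3, 218, 268 and 206 CPM against 34.4, 56.1, 138 and 154 CPM, with overlap between the groups (ratio 1.61), and lost its call without NF2 KO run 1. Sele, the gene for the cytokine-inducible E-selectin, averaged 19.7 CPM, just under the minimum. It stood at 30.9 CPM in selected and 8.61 CPM in other cells, with a ratio above 1 in all 4 runs. Icam2, which is constitutive in endothelium, was at a ratio of 0.966.

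Among cytokines and growth factors, Csf1 was called. This gene encodes the growth factor of macrophages. It measured 123, 162, 238 and 164 CPM in selected cells and 23.4, 20, 74.7 and 57.8 CPM in the others, without overlap (ratio 3.21, 3.02 to 3.40). The other 14 comparable genes of the cytokine and receptor list were not called, including Il6 at a ratio of 1.44. Tslp, an epithelial-type cytokine that acts on dendritic cells, was called outside that list with a ratio of 2.92. It was far higher in NF2 KO, with 36.1 and 49.5 CPM in selected cells against 9.10 and 13.9 CPM in control, and 1 cell held 14.7% of its UMIs. Without NF2 KO run 2 it lost its call.

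Interferon-responsive genes gave a mixed picture. Of 26 comparable interferon-response genes, 2 (Cxcl10 and Irf1) were called higher and 0 lower, with a median log2 ratio of 0.25, and of -0.18 in control run 1. Irf1, a transcription factor downstream of both interferon γ and NF-κB, measured 228, 295, 197 and 240 CPM in selected cells against 112, 134, 106 and 151 CPM (ratio 1.73). All 16 genes of MHC class I presentation had ratios above 1, none was called, and their median log2 ratio was 0.21. Among MHC class II genes Cd74, the invariant chain, was called (1.98), whereas H2-Aa (1.70), H2-Eb1 (1.59) and H2-Ab1 (1.26) were below 1 in control run 1. The call of Cd74 was lost without Cxcl1 or Icam1 in the score and without strata by run. Much of its control signal lay in 1 cell, as given below. Genes called outside this list include Ubd, encoding the ubiquitin-like FAT10, at 483, 2521, 697 and 1388 CPM in selected cells against 478, 535, 315 and 582 CPM. Ido1, the tryptophan-degrading enzyme, had the highest combined ratio (4.14, 3.58 to 4.79), but 27.5% of its UMIs came from 1 cell. It measured 36.4, 174, 9.86 and 13.6 CPM against 20.1, 26.6, 3.76 and 4.22 CPM, and it lost its call without either control run, with a ratio of 2.73 without control run 2.

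**Figure D3:**
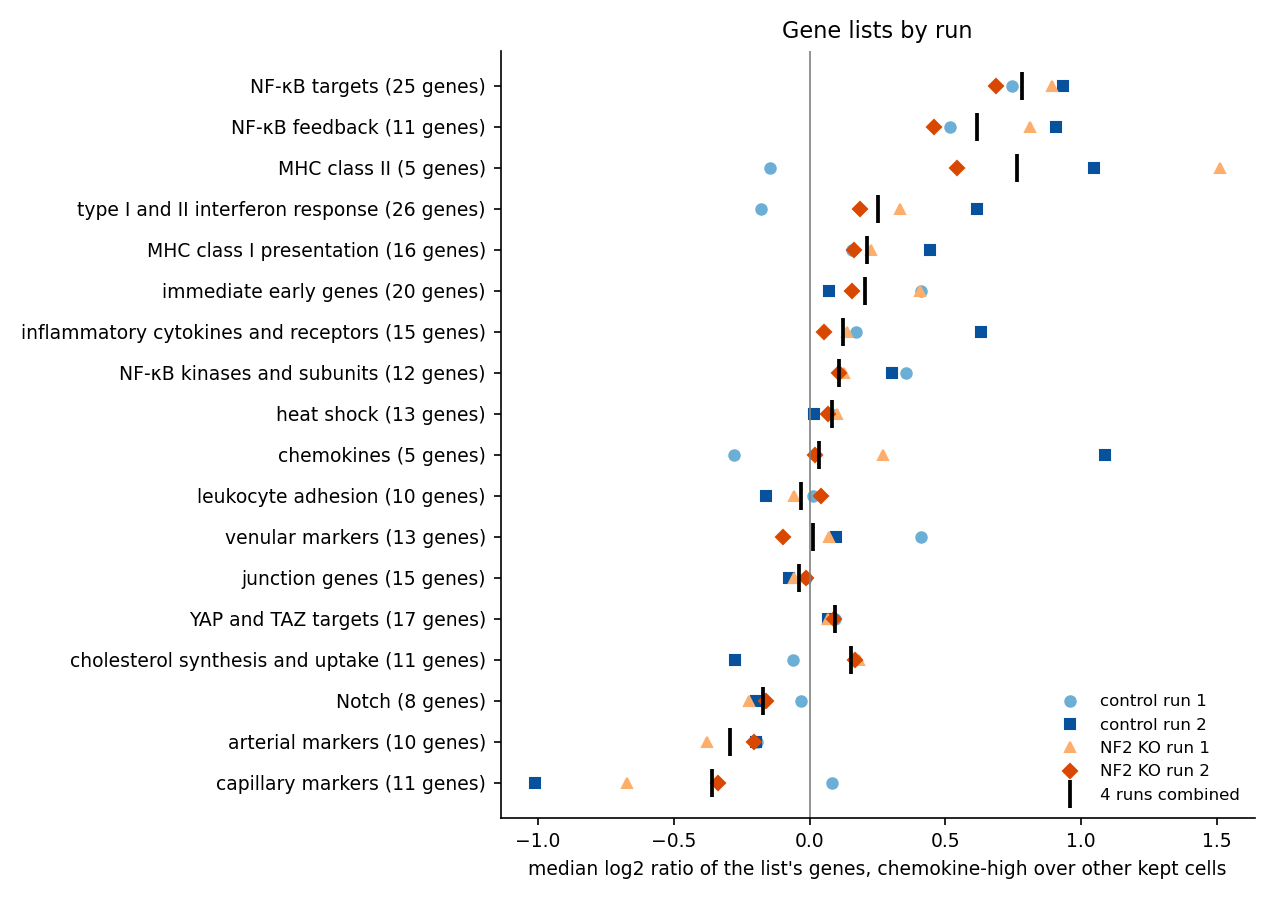
Median log2 ratio (selected over other kept cells) of 18 gene lists, by run and for the 4 runs combined, with the number of genes above 20 CPM in each list. NF-κB targets and feedback genes lie above 0 in all 4 runs, while MHC class II, interferon, chemokine and capillary lists have control run 1 on the other side of 0 from the combined value.

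Further genes of other kinds were called higher. Plaur, the urokinase receptor, had a ratio of 1.53 and lost its call without control run 2 or NF2 KO run 2. Rnd1, a small GTPase that loosens actin, measured 173, 295, 337 and 355 CPM in selected cells against 119, 129, 164 and 176.6 CPM (ratio 2.02). Of 23 basement membrane and matrix genes, 2 (Tnc, 1.78, and Itgav, 1.75) were called higher and 0 lower, with a median log2 ratio of -0.03. The growth factor Bmp2 (1.75), the glycolytic regulator Pfkfb3 (1.87), the E3 ligase gene Neurl3 (2.27), the protease inhibitor Serpina3g (2.10) and the immediate early gene Ier5 (1.55) were called. None of the 13 heat shock genes, 15 junction genes, 13 mitosis genes or 12 S phase genes was called in either direction. Of 20 immediate early genes 1 was called higher, with a median log2 ratio of 0.20. Of 53 higher genes, 11 had a level below 20 CPM in the other cells, and these include Ido1, Ccrl2, Nfkbie, Ripk2, Tslp and Nuak2.

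Some markers of resting capillary endothelium were lower in selected cells. Of 11 comparable capillary markers, 3 were called lower and 0 higher, with a median log2 ratio of -0.36, and of 0.08 in control run 1. Cd300lg, a capillary and high-endothelial-venule mucin receptor, had the lowest ratio of all (0.460, 0.411 to 0.515). It measured 41.0, 7.60, 19.2 and 53.6 CPM in selected cells against 58.8, 61.1, 62.3 and 102 CPM, without overlap. Fabp4, a fatty-acid carrier of capillary and adipose endothelium, measured 1871, 934, 992 and 2326 CPM against 3022, 2242, 1708 and 3331 CPM (ratio 0.651) and lost its call without control run 2. Ednrb, an endothelin receptor, had a ratio of 0.616 and lost its call without NF2 KO run 2. Rbp7 (0.518), a retinol-binding protein of capillaries, and the potassium channel gene Kcnj2 (0.484) were outside that list, and the ratio of Rbp7 was 0.260 without NF2 KO run 2.

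The other 22 lower genes were outside the capillary list. Thbd, encoding thrombomodulin, measured 25.04, 5.07, 31.9 and 28.0 CPM in selected cells against 33.3, 33.4, 46.5 and 50.1 CPM, without overlap (ratio 0.570). Id1, a direct target of BMP signalling, measured 152, 128, 117 and 112 CPM against 262, 261, 198 and 169 CPM, without overlap (ratio 0.613). Arterial markers had a median log2 ratio of -0.29 with 1 of 10, Unc5b, called lower. Dusp6, a phosphatase induced by ERK signalling, had a ratio of 0.646 and lost its call without control run 2. Peg3 (0.530), Apoe (0.571) and Tspan18 (0.598) were called, and Apoe and Tspan18 lost the call without NF2 KO run 2. Tspan18 also lost it without either control run. In control run 1 the ratios of the called genes lay near 1 for Apoe (0.959) and Nxpe2 (0.949).

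Levels of several genes moved in steps along the score, among the other kept cells as well as into the selected cells. The other kept cells were split by score into 4 classes of like size, and the selected cells into a lower and an upper class of 169 cells each. These classes pool the runs. Among the other kept cells the median score was 0.382 in NF2 KO and 0.210 in control, so the library mix can change along the classes. Its part in the steps was not tested. Vcam1 measured 77.2, 123, 182 and 290 CPM over the 4 classes of other cells and 456 and 595 CPM in the lower and upper selected classes. Csf1 went from 21.0 CPM in the lowest class of others to 213 CPM in the upper selected class, and Tnfaip3 from 15.1 to 85.1 CPM. In CPM, Ubd and Cxcl10 moved most at the selection. They went from 635 and 451 CPM in the highest class of others to 1106 and 850 CPM in the lower selected class. Selp and Sele did not go up to the top class, with 248 and 37.8 CPM in the lower and 184 and 24.4 CPM in the upper selected class. Fabp4 measured 2850.2 CPM in the lowest class of others and 1597 CPM in the upper selected class. Id1 fell most in the last step, from 165 CPM in the lower to 72.4 CPM in the upper selected class. The 10 genes plotted across the score were chosen after their values were seen.

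**Figure D4:**
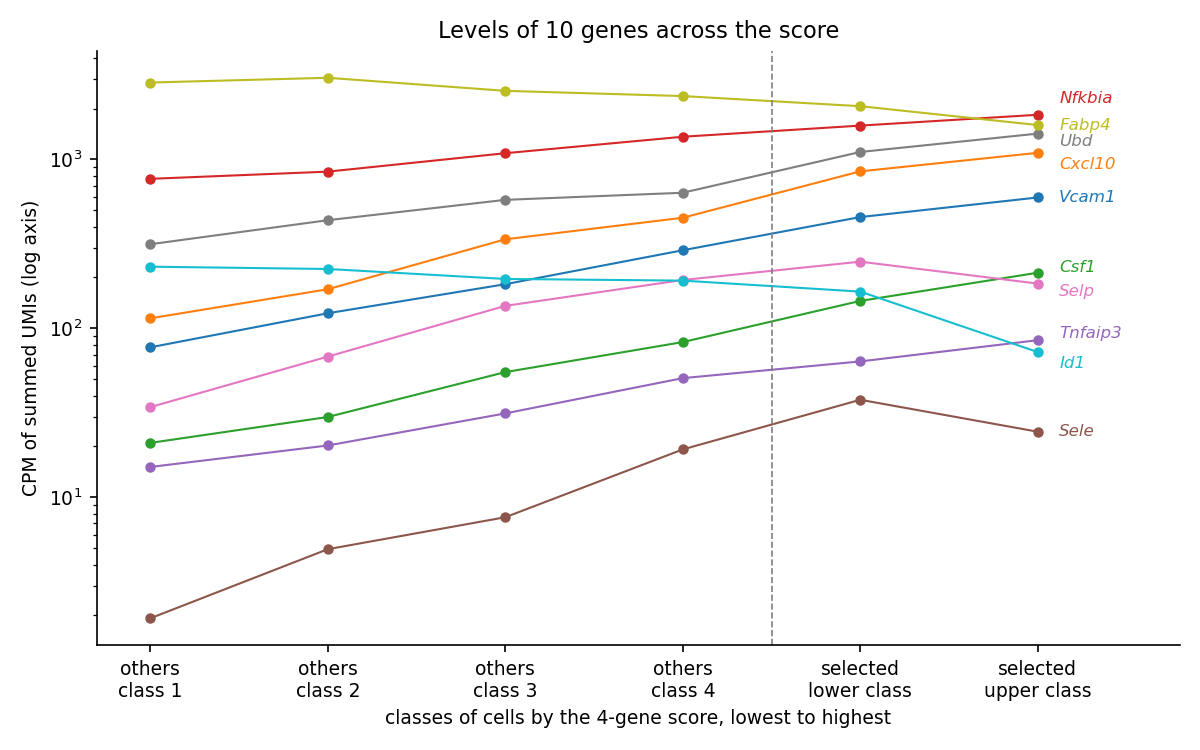
CPM of summed UMIs (log axis) of 10 genes in the other kept cells, in 4 classes by score, and in the lower and upper classes of the selected cells (169 cells each), with the runs pooled. Vcam1, Csf1, Cxcl10, Tnfaip3, Nfkbia and Ubd go up through all 6 classes, Selp and Sele peak in the lower selected class, and Fabp4 and Id1 are lowest in the upper one.

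Which genes accompanied the score depended on the score gene. Without Icam1 in the score, Selp had a ratio of 0.553, compared with 2.51 without Ccl2. Without Ccl2, the ratios of Fabp4 (1.14), Apoe (1.199), Tsc22d1 (1.02) and Btbd3 (1.01) lay above 1, that of Cd300lg was 0.777, and 1 gene was called lower in place of 25. Without Icam1, 75 genes were called lower. Vcam1 kept its call in all 28 alternatives, with a ratio between 2.498 and 4.27, as did Cxcl10, Csf1, Neurl3, Tnip1 and Rnd1. Without Ccl2 in the score, 35 of the 53 higher genes and 0 of the 25 lower genes were called again.

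Within the selected cells, the NF2 KO library was compared with the control library. Nf2 itself measured 25.04 and 21.5 CPM in selected control cells and 16.9 and 19.1 CPM in selected NF2 KO cells (ratio 0.809, 0.534 to 1.27). A 3' library reads transcripts that may remain after an exon is deleted, so this level checks no label. A gene was called where the ratio of NF2 KO over control reached 1.5 upwards or downwards, the interval did not include 1, the mean level was 20 CPM or more, and both runs of 1 library lay beyond both of the other. Of 5870 genes, 205 were called higher (3.49%) and 365 lower (6.22%), with a median log2 ratio of -0.04. The control side rests on 53 cells, so single cells weigh heavily. In the other kept cells 162 of 5831 genes were called higher and 307 lower by the same rule.

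Targets of YAP and TAZ, the transcriptional co-activators that Merlin and the Hippo kinases restrain, were among the higher genes. Of 17 comparable targets, 8 were called higher and 2 lower (Nt5e and Igfbp3), where 3.49% and 6.22% of all genes were. Their median log2 ratio was 0.47 in selected and 0.70 in other cells. Ankrd1 measured 6.83 and 6.33 CPM in selected control cells and 207 and 108 CPM in NF2 KO cells (ratio 21.2, 10.7 to 49.3). It was found in 5 control and 84 NF2 KO cells, and its library ratio in other cells was 6.00. Without NF2 KO run 2 the ratio in selected cells was 31.9. Cyr61 measured 483 and 554 CPM against 1123 and 945 CPM (ratio 1.89), Ctgf 373 and 246 CPM against 591 and 473 CPM (1.75), and Ajuba and Amotl2 had ratios of 2.92 and 1.999. Ctgf lost its call without control run 2. Nuak2, a kinase induced by YAP, was higher both in selected cells (1.77) and in NF2 KO selected cells (5.30). Igfbp3 was lower in NF2 KO, with 6218 and 4301 CPM in control against 1558 and 1794 CPM.

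Cholesterol synthesis and uptake genes were higher in NF2 KO selected cells, at 8 of 10 comparable genes and 0 lower. Of all genes, 3.49% were called higher and 6.22% lower. The median log2 ratio of the cholesterol genes was 1.15. Their summed level was 335 and 319 CPM in the control runs and 698 and 644 CPM in the NF2 KO runs, without overlap. Idi1 measured 11.4 and 13.9 CPM against 57.7 and 53.0 CPM (4.18, 2.54 to 7.39). In the other kept cells 5 of 9 were called higher with a median log2 ratio of 0.68. Cyp51 and Hmgcs1 were among the genes that lost their calls without control run 2, and Cyp51 also without NF2 KO run 1.

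Haemostasis and vasoactive genes included 7 called higher and 3 lower of 17, where 3.49% and 6.22% of all genes were. F2r, the thrombin receptor, measured 25.04 and 21.5 CPM in control and 103 and 105 CPM in NF2 KO selected cells (4.58, 3.14 to 6.94). F2rl1, a related protease receptor, was at 0 and 12.7 CPM against 62.4 and 64.3 CPM, and its control UMIs came from 3 cells (7.83, 4.22 to 16.4). Edn1, the vasoconstrictor endothelin, measured 88.8 and 239 CPM against 866 and 726 CPM (4.14), with a ratio of 4.805 in other cells. Without control run 2 its ratio in selected cells was 8.66. Car4, a capillary carbonic anhydrase, measured 9.10 and 6.33 CPM against 78.9 and 132 CPM, with a ratio of 15.8 in selected and 2.84 in other cells. Its control UMIs came from 6 cells, and selection within each run gave 5.91. The other genes with the highest ratios were Rgs2 (7.29), Fam198b (5.81), Rasa4 (5.43), Ntn4 (5.08) and Zfp462 (4.66). Rgs2 UMIs were found in 3 control cells, and its call was lost without control run 1 or NF2 KO run 1. Zfp462 lost its call without control run 2. Leaving out 1 run moved several of these ratios by over 1.5 times. Without control run 1 they were 5.03 for F2rl1, 3.26 for Ntn4 and 14.0 for Rgs2. Without control run 2 they were 2.08 for Fam198b, 3.91 for Rgs2 and 7.51 for Zfp462.

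**Figure D5:**
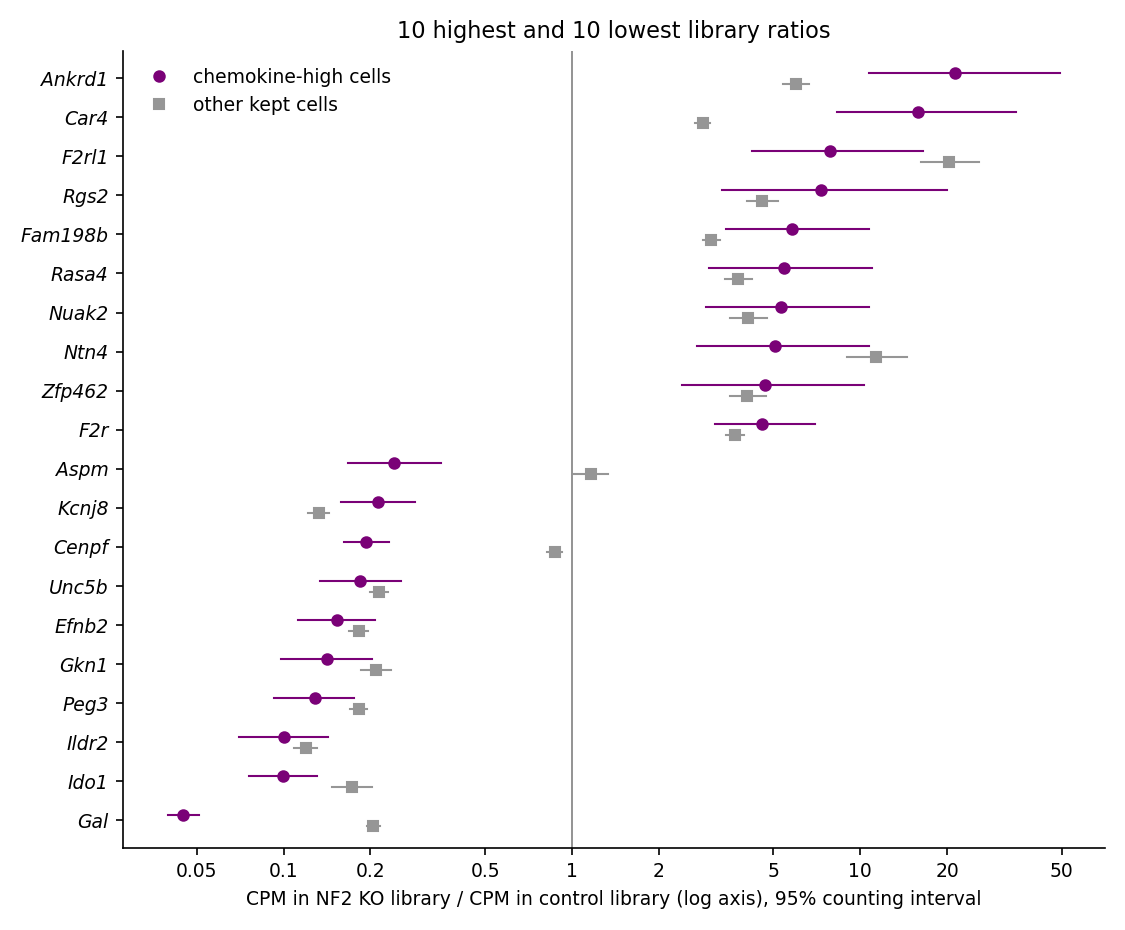
Ratio of CPM in the NF2 KO over the control library (log axis) in selected cells and in other kept cells, with 95% counting intervals, for the 10 highest and 10 lowest called genes in selected cells. F2r, Nuak2, Unc5b, Efnb2 and Ildr2 have like ratios in both, whereas Cenpf and Aspm are at 0.194 and 0.242 in selected cells and 0.871 and 1.16 in the others.

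Arterial markers went both ways between the libraries. For the list counts here, 3.49% of all genes were called higher in NF2 KO and 6.22% lower. Of 11 comparable markers, 5 were called lower in NF2 KO selected cells (Efnb2, Unc5b, Vegfc, Jag2 and Dll4) and 3 higher (Edn1, Cxcl12 and Clu), with a median log2 ratio of -0.69 in selected and -0.55 in other cells. Their summed level was 1022 and 1253 CPM in the control runs and 1666 and 1750.5 CPM in the NF2 KO runs. Efnb2, an arterial ephrin, measured 91.0 and 68.4 CPM in control and 5.63 and 14.4 CPM in NF2 KO (ratio 0.153, 0.113 to 0.208). Unc5b, a netrin receptor of arterial and tip cells, measured 97.9 and 43.1 CPM against 9.39 and 12.5 CPM (0.185). Without control run 2 the ratio of Unc5b was 0.118, and without NF2 KO run 2 that of Efnb2 was 0.0736. Of 8 comparable Notch genes, 3 were called lower (Jag2, Dll4 and Hes1) and 0 higher, with a median log2 ratio of -0.58 in selected and -0.61 in other cells. Hes1 lost its call without control run 1 or NF2 KO run 2, and Dll4 without control run 2. Of 15 junction genes, 4 were called lower (Cldn5, Jup, Jam2 and Cdh5) and 0 higher, with a median log2 ratio of -0.33. Cldn5, the endothelial tight junction claudin, measured 1493 and 946 CPM against 369 and 328 CPM (0.298), and in other cells its ratio was 0.256. Cdh5, encoding VE-cadherin, had a ratio of 0.651 in both, and lost its call without control run 1. The neuropeptide gene Gal had the lowest ratio, at 473 and 1361 CPM against 97.6 and 24.7 CPM (0.0449), and 48.8% of its NF2 KO UMIs were in 1 cell. Ildr2 (0.1004), Gkn1 (0.141) and Kcnj8 (0.212) were also among the 10 lowest. The ratio of Gal ranged from 0.0236 to 0.0990 when 1 run was left out, that of Gkn1 was 0.232 without NF2 KO run 2, and that of Kcnj8 0.139 without control run 2.

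MHC class II and mitosis genes were lower in NF2 KO selected cells, and both leaned on control run 2. The counts in selected cells stand beside 3.49% of all genes called higher in NF2 KO and 6.22% lower. Of 5 comparable class II genes 4 were called lower, with a median log2 ratio of -1.79 in selected and -1.84 in other cells. Cd74 measured 435 and 873 CPM in control and 104 and 251 CPM in NF2 KO selected cells (0.288). Its part from antigen-presenting cells was not tested, and 37.0% of its control UMIs were in 1 cell. Without control run 2 the class II median was -0.85, H2-Ab1 lost its call and the ratio of Cd74 was 0.475. Without NF2 KO run 2 the ratio of Cd74 was 0.145. Of 14 comparable mitosis genes 5 were called lower and 0 higher (median log2 ratio -1.36), against 0 in either direction of 12 in the other cells (median 0.09). Cenpf, a kinetochore protein gene, measured 59.2 and 275 CPM in control against 16.9 and 47.7 CPM in NF2 KO. Its UMIs came from 10 control cells. Without control run 2 the mitosis median was -0.22 and Cenpf (0.647), Aspm (0.573), Tpx2 (0.662) and Hmmr (0.717) lost their calls. Without NF2 KO run 2 the ratio of Cenpf was 0.0854.

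Inflammatory genes were also compared between selected cells of the 2 libraries. Because 1 threshold on 4 such genes was applied to both libraries, the score itself was held at a like level, with a median of 1.44 in control and 1.47 in NF2 KO. Of 27 comparable NF-κB targets, 3 were called higher and 2 lower in NF2 KO, where 3.49% and 6.22% of all genes were, with a median log2 ratio of -0.19 in selected and 0.09 in other cells. The median in selected cells was 0.02 without control run 2 and -0.35 without control run 1. Nfkbia was lower (0.616, 0.592 to 0.641), as in the other cells (0.675), and it kept its call without each run. Plau was lower (0.490) and lost its call without control run 2 (0.701). Gadd45b (1.96) and Birc2 (2.12) were higher, and without control run 2 their ratios were 3.07 and 5.16. Il1b was called higher (2.60), but without the 5 selected cells highest in neutrophil markers it was 1.46 and not called, and it also lost its call without NF2 KO run 2. Vcam1 (0.735), Cxcl10 (0.894), Csf1 (1.26) and Selp (1.42) were not called. In the other kept cells their library ratios were 1.19, 1.22, 2.96 and 3.24.

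Some genes were called in both comparisons. Of the 53 genes higher in selected cells, 8 were also higher in NF2 KO selected cells, among them Tslp, Nuak2 and Gadd45b, and 7 were lower, among them Nfkbia, Ido1, Ccrl2, Cd74 and Bmp2. Of the 25 genes lower in selected cells, Thbd was higher in NF2 KO (2.39) and 6 were lower, among them Unc5b, Peg3 and Sema6d. Thbd lost its call without either control run, with ratios of 5.75 without run 1 and 1.16 without run 2. Ccrl2 lost its lower call without control run 2, where the ratio of Ido1 was 0.342. The ratio of Peg3 was 0.0541 without NF2 KO run 2, and that of Sema6d was 0.662 without control run 1 and 0.255 without control run 2. Among genes called in selected against other cells, the library ratio was 1.26 in selected and 2.96 in other cells for Csf1, 1.96 and 3.07 for Gadd45b, and 2.39 and 1.46 for Thbd. These differences were not tested.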

How the data were processed

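Each library was sequenced on a droplet system with 3' v3.1 chemistry, per the labels' protocols. Cell Ranger 3.0.0, Seurat 3.1.1 and build mm10 are named, per the submitters' processing notes. The authors deposited natural log values, ln(1 + 10000 × UMIs / total), for 19831 genes. UMI counts were recovered from them and all were whole within 0.01, giving 34649992 UMIs in 2826 control cells and 58907098 in 3368 NF2 KO cells. The score used the deposited values and levels used summed UMIs per 1000000 (CPM). Selected and other cells were compared by a Mantel-Haenszel rate ratio with run as stratum and a Greenland-Robins interval, and the libraries by an exact conditional interval. Members and lists were chosen with earlier results of these data known. Named genes were the score genes, all inflammatory-list genes above 20 CPM, the 15 highest and 15 lowest called genes, the 10 highest and 10 lowest between libraries, up to 4 per direction of other lists, and 5 per direction whose library ratios differed most between selected and other cells with both runs of a library on the same side. Genes named beyond this rule were chosen after their values were seen. Possible doublets were kept, and removing the 5% of each library with the highest doublet scores (211 kept cells, 26 of them selected) was an alternative. Antisense and overlapping genes were not separated. The calculation was tested on simulated data. Python 3.11.15, numpy 2.4.6, scipy 1.17.1, pandas 2.3.3 and scikit-learn 1.9.0 were used. Some items are not reported here.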

Additional observations from a re-analysis of the deposited data

Results flagged for a closer look

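Among the cells with fewer than 2000 detected genes, which the comparisons leave out, 103 of 1970 (5.23%) reached the score threshold. Their neutrophil markers summed to 1149.7 CPM, and those of endothelium to 7935 CPM.

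Several ratios of selected over other cells lay on opposite sides of 1 in the 2 libraries, and none of these differences was tested. The genes below were screened only among those named for extreme or differing library ratios in selected cells, which favours such a split. The gene lists were screened from the 38 fixed lists. For cholesterol synthesis and uptake genes the median log2 ratio was -0.06 and -0.27 in the control runs and 0.18 and 0.17 in the NF2 KO runs, a difference of -0.34 (control minus NF2 KO). For polyamine and cationic amino acid genes the medians were -0.08 and -0.06 against 0.19 and 0.04, a difference of -0.18. Ankrd1, a YAP target, had ratios of 0.480 and 0.517 in control and 2.40 and 1.44 in NF2 KO, a log2 difference of -1.90. The thrombin receptor gene F2r had ratios of 0.798 and 0.936 against 1.034 and 1.06 (-0.28). The kinetochore gene Cenpf had ratios of 1.08 and 3.90 against 0.275 and 0.933 (2.02), and the potassium channel gene Kcnj8 0.852 and 0.514 against 1.09 and 1.02 (-0.67).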

How the results depend on the processing

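No paired analysis was possible because each group is 1 library and the run numbers of the cell names are not replicates. The ratio of the share of selected cells, NF2 KO over control, ranged from 2.06 to 3.16 over 13 alternatives. The score on cells thinned to 5000 UMIs is among them. Without cells holding 2 or more leukocyte marker genes, 89 genes were higher in selected cells. This removal took 3163 kept cells and 267 selected ones, and the top 8% was chosen again from the rest. It counted the genes of all immune cell marker lists, with Kit of the mast cell list among them. Genes higher in selected cells numbered 32 at 50 CPM or more, 139 with no minimum and 16 at a ratio of 2 or more. They numbered 183 in the control library alone, and 49 to 82 when a run was left out. Genes lower numbered 38 with the top 5%, 15 with the top 12%, 9 with genes scaled by their SD, 16 with thinned cells, 62 without leukocyte-marker cells, 1 without Ccl2 and 75 without Icam1 in the score, 53 without strata, 45 at 10 CPM, 10 at 50 CPM, 173 with no minimum, 2 at a ratio of 2 and 136 in control alone, and 25 to 49 without a run. Between libraries, 78 genes were higher and 153 lower at 50 CPM, 371 and 614 with no minimum, and 74 and 105 at a ratio of 2. Stricter minimums and ratios call fewer genes by construction. With a run left out or 1 library alone, fewer runs had to lie on 1 side, which makes a call easier. For the other settings the cause was not tested. The median log2 ratio of the NF-κB targets was 0.93 without leukocyte-marker cells, 0.62 without Icam1, 0.94 with no minimum, 0.999 in control alone and 0.74 to 0.95 without a run. Values that changed sides include tip cell markers 0.0079 and Selp 0.553 without Icam1, endothelial transcription factors 0.090, Btbd3 1.01, Fabp4 1.14, Apoe 1.199 and Tsc22d1 1.02 without Ccl2, Peg3 1.117 without leukocyte-marker cells and 1.13 without Cxcl1, and, between libraries, flow-responsive genes -0.081 at 3000 genes, Hes1 1.029 and Il1b 0.467 without leukocyte-marker cells. The scores without 1 gene, the removal of neutrophil-marker cells and the weighting to control scores were chosen after seeing the data. Depth limits genes under 20 CPM, and 53 control cells limit every library ratio.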

Other observations

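Other gene groups differed between the libraries within the chemokine-high cells. The counts below stand beside 3.49% of all genes called higher in NF2 KO and 6.22% called lower. Tip cell markers were called higher at 4 genes (Apln, Esm1, Adm and Angpt2) and lower at 7 of 24. Angpt2 lost its call without control run 1 (1.28), and its ratio was 2.57 without control run 2. Apln, a peptide of sprouting endothelium, measured 851 and 816 CPM in control runs 1 and 2 and 1665 and 1772 CPM in NF2 KO runs 1 and 2. Of 23 basement membrane and matrix genes 3 were higher and 5 lower. Fn1, encoding fibronectin, measured 341 and 1074 CPM in control and 2373 and 1946 CPM in NF2 KO, and Sparc, a matrix-binding glycoprotein gene, 9377 and 6883 CPM against 4169.8 and 4163 CPM. Without control run 2 the ratio of Fn1 was 6.08. Of 7 comparable immune checkpoint and adenosine genes 4 were lower (Ido1, Nt5e, Cd276 and Vsir) and 0 higher. Vsir lost its call without control run 2 or NF2 KO run 2, and the ratio of Ido1 was 0.342 without control run 2. Nt5e, the adenosine-producing ectoenzyme CD73, measured 107 and 92.5 CPM in control and 34.3 and 26.5 CPM in NF2 KO.

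Heat shock genes were higher at 2 of 13, where 3.49% of all genes were. These were Hspb1 (2.24) and Hspa1a (1.90), with library ratios of 2.47 and 1.69 in the other kept cells. Among flow-responsive genes 5 of 10 were higher, including Klf2 (1.61) and Txnip (2.10). Klf2 lost its call without control run 2 or NF2 KO run 1.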
